A study of Mus musculus with 2 samples.

Results

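The 43 genes described here encode the TNF superfamily, 18 ligands and 25 receptors, and were taken by gene symbol from a table of 55487 genes. Each of the 43 symbols matched exactly 1 row of the table. The cells were Langerhans cells, which take up and present antigen in the epidermis, from mice with the genotype labelled HTR2A-/-, which lack the serotonin 2A receptor. Per the labels' protocols, cells that stained for CD207 and for MHC II were sorted from digested ears, treated with a-CD40L, as the labels write it, and imiquimod over 24 hours, and used for RNA sequencing. Imiquimod activates Toll-like receptor signalling and is used to model psoriasis in mice. The series concerns this receptor, IL-23 secretion and inflammation in psoriasis. In its title the Langerhans cells are described as derived from monocytes. Both samples carry the same genotype and the same treatment, so they form 1 group of 2 libraries, so no wild-type or untreated group enters any comparison. The labels name neither the animals, their age nor any separate cultures, and do not say whether the gene was deleted in all cells. The column that carries a replicate number is called library 2 and the column without one library 1. All differences below are therefore the spread between 2 replicates of 1 condition.

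Ligands of the TNF superfamily are mostly trimeric membrane proteins, some of which are cut from the cell surface, and their receptors carry cysteine-rich repeats outside the cell. Receptors with a death domain can recruit adaptors of caspase activation, whereas most others bind TRAF adaptors and switch on NF-κB. In dendritic cells, the engagement of CD40 by its ligand on T cells drives maturation and cytokine secretion, and TNF supports the maturation and migration of Langerhans cells. Ligands such as those of Tnfrsf9, Tnfrsf4 and Tnfrsf18 are costimulators that antigen-presenting cells display to T cells. Cd40 encodes the receptor for which the second stimulus is labelled.

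Several members lie side by side in the genome at very different levels. Promoter windows are shown for some of these, and for Tnfrsf9, which has no other member within 200 kb. Cd40 and Tnfsf9 were among the members without a window. Windows run from 250 bases before to 50 bases after a RefSeq transcription start on GRCm38.p6, are read 5′ to 3′ on the strand of the gene, and were found for 35 of the 43 members. They are Tnf (chr17:35201958-35202257, minus strand), its neighbours Lta (chr17:35205302-35205601, minus strand) and Ltb (chr17:35194257-35194556, plus strand), Tnfsf18 (chr1:161494407-161494706, plus strand), Tnfrsf1b (chr4:145246821-145247120, minus strand) and 1 of the 2 listed starts of Tnfrsf9 (chr4:150927749-150928048, plus strand). Capitals mark matches, on either strand, to the κB letters (GGG, any 2 bases, then TTTCC), the AP-1 letters TGANTCA and the TATA box letters TATAAA.
Tnf: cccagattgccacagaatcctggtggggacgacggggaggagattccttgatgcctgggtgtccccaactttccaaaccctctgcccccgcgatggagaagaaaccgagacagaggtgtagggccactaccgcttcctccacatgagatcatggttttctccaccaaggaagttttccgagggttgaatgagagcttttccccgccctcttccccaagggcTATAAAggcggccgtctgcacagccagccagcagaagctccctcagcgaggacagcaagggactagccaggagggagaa
Lta: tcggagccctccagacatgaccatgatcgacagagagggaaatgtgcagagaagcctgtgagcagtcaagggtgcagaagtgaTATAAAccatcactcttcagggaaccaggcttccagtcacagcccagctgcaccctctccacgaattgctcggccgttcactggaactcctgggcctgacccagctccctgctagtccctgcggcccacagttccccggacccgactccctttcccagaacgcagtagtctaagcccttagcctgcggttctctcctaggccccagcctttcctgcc
Ltb: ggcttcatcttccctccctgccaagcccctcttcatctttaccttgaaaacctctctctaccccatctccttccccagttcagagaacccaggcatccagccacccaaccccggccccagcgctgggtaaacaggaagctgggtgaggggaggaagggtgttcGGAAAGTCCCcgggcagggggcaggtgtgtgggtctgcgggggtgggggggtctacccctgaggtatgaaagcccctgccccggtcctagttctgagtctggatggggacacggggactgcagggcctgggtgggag
Tnfsf18: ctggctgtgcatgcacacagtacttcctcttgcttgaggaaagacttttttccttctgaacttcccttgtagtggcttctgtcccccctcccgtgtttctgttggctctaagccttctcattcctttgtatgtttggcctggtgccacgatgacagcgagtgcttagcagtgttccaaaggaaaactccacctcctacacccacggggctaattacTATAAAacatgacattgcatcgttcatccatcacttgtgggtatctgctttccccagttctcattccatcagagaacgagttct
Tnfrsf1b: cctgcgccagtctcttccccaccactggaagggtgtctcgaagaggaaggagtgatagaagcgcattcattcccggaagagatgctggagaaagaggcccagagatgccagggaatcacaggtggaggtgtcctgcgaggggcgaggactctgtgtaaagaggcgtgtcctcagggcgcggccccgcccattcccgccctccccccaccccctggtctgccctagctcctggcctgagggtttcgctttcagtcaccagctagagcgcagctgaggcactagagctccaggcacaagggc
Tnfrsf9: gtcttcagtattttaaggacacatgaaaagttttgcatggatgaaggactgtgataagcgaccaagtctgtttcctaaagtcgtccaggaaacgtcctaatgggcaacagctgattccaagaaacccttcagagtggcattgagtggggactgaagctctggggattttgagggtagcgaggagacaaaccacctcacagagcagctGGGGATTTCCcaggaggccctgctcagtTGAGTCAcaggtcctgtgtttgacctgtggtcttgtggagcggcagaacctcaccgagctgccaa
In these windows the TATA box letters began 29 bases before the start of Tnf, 34 before that of Tnfsf18 and 167 before that of Lta. The κB letters began 87 bases before the start of Ltb, on the opposite strand, and 43 before that of Tnfrsf9, whose window also held the AP-1 letters 15 bases before the start. The Tnfrsf1b window held none of the 3 motifs, nor did the window at the other listed start of Tnfrsf9, which is not printed. No marked matches overlapped each other. Of the members with a window, 3 of 35 held the κB letters, against 1.89% of the 27025 genes with a window. The AP-1 letters were held by 6 of 35 members, against 8.97% of all genes, and the TATA box letters also by 6 of 35, against 15.7% of all genes. A match describes the letters only and is not a binding site.

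Library 1 held 69925160 counts and library 2 held 42264685 counts. Levels are given as CPM, counts scaled to the library total, and per kb of exon where genes are compared with each other. The 1135 protein-coding olfactory receptor genes, which are used mainly by olfactory neurons, also had counts and set the background. Above background means a level per kb over the 95th percentile of these genes, which was 0.761 CPM per kb in library 1 and 1.58 in library 2. Cd207 and the other 9 genes of the Langerhans cell list had counts in both libraries, and 9 of the 10 were above background in both. The summed level of that list was 20950 CPM in library 1 and 11490 CPM in library 2. The 12 genes of the mature dendritic cell list summed to 3498 and 994 CPM, and the 10 keratinocyte genes to 4630 and 16280 CPM, so the keratinocyte sum exceeded that of the Langerhans cell list in library 2. The targeted gene Htr2a had 77 counts in library 1 and 117 in library 2, a level within background in both. In bulk RNA, fewer cells of a type and less RNA per cell cannot be told apart.

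Of the 43 members, 20 were above background in both libraries, against 47.3% of all 21974 protein-coding genes, so the family as a whole (46.5%) lay near that share. Under the rule of both libraries its parts were uneven, with 15 of 25 receptors (60.0%) but 5 of 18 ligands (27.8%) called. Another 11 members were above background in library 1 alone and 2 in library 2 alone. The cutoff was higher in library 2 (1.58 against 0.761 CPM per kb), so this split does not by itself mean higher levels in library 1. Of the 11, Fasl, Ngfr and Tnfrsf25 were higher per kb in library 2 and the others in library 1. The remaining 10 members were above background in neither library. Taken by itself, library 1 had 31 members above background, against 56.2% of protein-coding genes, and library 2 had 22, against 50.4%. By class these were 12 of 18 ligands and 19 of 25 receptors in library 1, and 7 and 15 in library 2. The gap between the classes was thus narrower in library 1 than under the rule of both libraries.

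**Figure D1:**
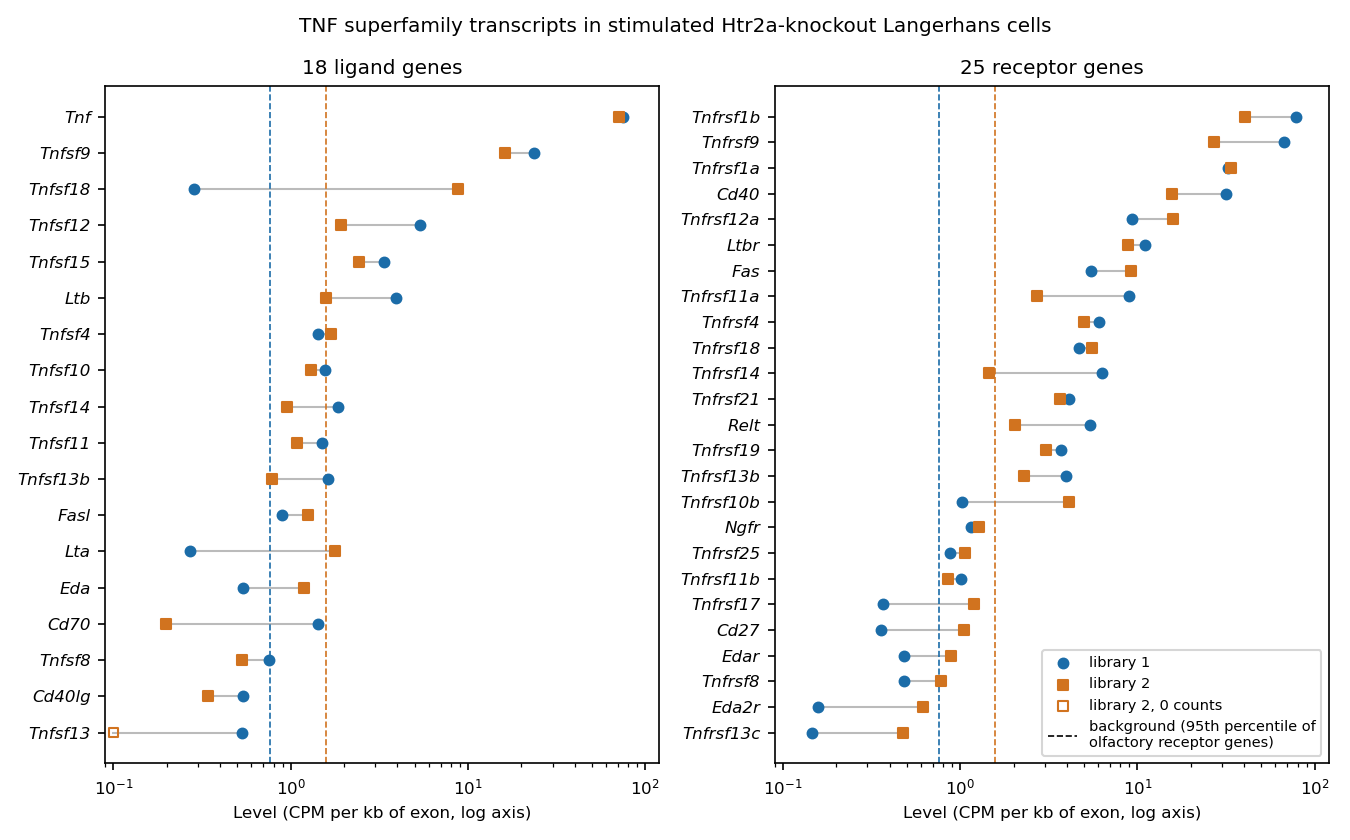
Level of each of the 18 ligand genes (left) and 25 receptor genes (right) in library 1 (circles) and library 2 (squares), in CPM per kb of exon on a log axis, ordered by the mean. Dashed lines give the background of each library, 0.761 for library 1 and 1.58 for library 2, and the open square stands for 0 counts. Tnf stands above all other ligands in both libraries, and Tnfsf18 has the widest gap between the libraries among ligands averaging 1 CPM or more.

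Tnf dominated the ligands. It encodes the inflammatory cytokine that gives the family its name and had 8632 counts in library 1 and 4921 in library 2, or 75.3 and 71.0 CPM per kb. The mean was 73.2 ± 3.03 CPM per kb (SD, n = 2), at percentile 98.4 of protein-coding genes. Tnf made up 60.4% of the summed level per kb of all ligands in library 1 and 62.9% in library 2. The log2 ratio of library 1 over library 2, scaled by TMM, was 0.51 (95% exact binomial interval 0.46 to 0.56), and 0.08 on total counts. The intervals cover counting error only, and they would be too narrow if both reads of a pair had been counted, which is not given in the sources used here.

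Tnfsf9, the costimulatory ligand of Tnfrsf9, was second among the ligands at 23.6 CPM per kb in library 1 and 16.2 in library 2. Its gene lies on GRCm38 chromosome 17 from 57105325 to 57107757. Its range lay below that of Tnf and above that of every other ligand. Of the 17 steps in the order of ligands, 15 separated genes whose ranges over the 2 libraries overlapped. The exceptions were the steps from Tnf to Tnfsf9 and from Tnfsf9 to Tnfsf18, so no neighbours among the 16 lower ligands differed beyond their spread. An antisense lincRNA, Gm11110, covers 14.9% of the exon of Tnfsf9, and without a stated use of strand the 2 cannot be told apart there.

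Tnfsf18, the ligand of the regulatory T cell receptor Tnfrsf18, was found with 41 counts in library 1, against 762 in library 2. The levels were 0.284 and 8.73 CPM per kb, so it lay within background in library 1 and was the third ligand in library 2. The log2 ratio was -4.48 (95% interval -5.00 to -4.06), the lowest of the 38 members averaging 1 CPM or more. Tnfsf4, the ligand of Tnfrsf4 and its neighbour on chromosome 1, was at 1.42 and 1.70 CPM per kb in libraries 1 and 2. It lay above the background of library 2 by a small margin.

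Tnfsf12, which encodes the cytokine TWEAK, was at 5.34 CPM per kb in library 1 and 1.92 in library 2. Tnfsf13, which encodes the B cell survival factor APRIL, had 61 counts in library 1, against 0 in library 2. Both neighbours on chromosome 11 share 48.3% and 60.0% of their exon with the annotated gene Tnfsfm13, which spans both and had 303 counts in library 1 and 194 in library 2. The division of reads between the 3 genes is uncertain, and their counts together were 930 in library 1 and 317 in library 2. Tnfsf15, a T cell costimulator that binds Tnfrsf25, was the fifth ligand above background in both libraries, at 3.35 and 2.44 CPM per kb.

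The other genes of the TNF locus were scarce. Ltb, a subunit of the membrane lymphotoxin that binds Ltbr, was at 3.92 CPM per kb in library 1 and 1.58 in library 2, where it fell just under the background. Lta, the secreted lymphotoxin, had 26 counts in library 1 and 104 in library 2, or 0.269 and 1.78 CPM per kb. Lta was thus above background in library 2 alone and Ltb in library 1 alone. Per kb, Tnf exceeded Lta 280.1 times in library 1 (95% interval 191 to 429) and 39.9 times in library 2 (32.9 to 49.0). It exceeded Ltb 19.2 times in library 1 (17.4 to 21.2) and 45.1 times in library 2 (37.0 to 55.4). These 3 genes lie within chromosome 17 from 35194439 to 35205351.

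Of the remaining ligands, 6 were above background in library 1 alone. They were Tnfsf10, the death ligand TRAIL (1.56 and 1.30 CPM per kb in libraries 1 and 2), Tnfsf14, known as LIGHT (1.85 and 0.948), Tnfsf11, the osteoclast factor RANKL (1.503 and 1.09), Tnfsf13b, the B cell factor BAFF (1.63 and 0.782), Fasl (0.893 and 1.26) and Cd70, the ligand of Cd27 (1.43 and 0.197). Cd70 rested on 84 counts in library 1 and 7 in library 2. Above background in neither library were Tnfsf13, Eda, a factor of skin appendages, Tnfsf8, the ligand of Tnfrsf8, and Cd40lg. Cd40lg, the T cell ligand of Cd40, had 47 counts in library 1 and 18 in library 2, or 0.538 and 0.341 CPM per kb.

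By the mean, receptor transcripts were led by both TNF receptors, Tnfrsf9 and Cd40. Tnfrsf1b, the TNF receptor without a death domain, was at 78.4 CPM per kb in library 1 and 40.7 in library 2, with a mean of 59.5 ± 26.7 (SD, n = 2). Tnfrsf1a, the TNF receptor with a death domain, was at 32.2 and 33.8 CPM per kb, and differed little between the libraries. Per kb, Tnfrsf1b exceeded Tnfrsf1a 2.43 times in library 1 (95% interval 2.36 to 2.50) and 1.20 times in library 2 (1.16 to 1.25). The log2 ratio between the libraries was 1.38 for Tnfrsf1b, against 0.36 for Tnfrsf1a, whose sign turned on total counts (-0.07).

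Tnfrsf9, the receptor of Tnfsf9 and a marker of activated lymphocytes and dendritic cells, had 12697 counts in library 1 and 3103 in library 2. At 66.7 and 27.0 CPM per kb it was the second receptor by the mean (46.8 ± 28.1, SD, n = 2). Its log2 ratio was 1.74 (95% interval 1.68 to 1.79). Cd40, whose ligation licenses dendritic cells, was at 31.6 CPM per kb in library 1 and 15.6 in library 2 (23.6 ± 11.3, SD, n = 2), at percentile 94.2 of protein-coding genes. Its log2 ratio was 1.45 (95% interval 1.38 to 1.52). Relative to Tnfrsf1a, Cd40 stood at 0.979 in library 1 (95% interval 0.946 to 1.01) and 0.462 in library 2 (0.438 to 0.487).

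A middle range of receptors followed by the mean. Tnfrsf12a, the receptor of Tnfsf12 and a gene of wounded epithelia, was at 9.30 CPM per kb in library 1 and 15.9 in library 2. In library 2 it was thus as high as Cd40 (15.6). Ltbr, the lymphotoxin receptor, was at 11.0 and 8.82 CPM per kb, and Fas, the death receptor of Fasl, at 5.45 and 9.24. Tnfrsf11a, the receptor RANK, through which keratinocyte RANKL sustains Langerhans cells in mice, was at 8.98 CPM per kb in library 1 and 2.70 in library 2. Tnfrsf12a and Fas were thus higher in library 2, and Tnfrsf11a was higher in library 1 with a log2 ratio of 2.16 (95% interval 2.04 to 2.28).

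Tnfrsf4 and Tnfrsf18, costimulatory receptors best known from T cells, lie next to each other on chromosome 4. Tnfrsf4 was at 6.03 CPM per kb in library 1 and 5.01 in library 2, and Tnfrsf18 at 4.65 and 5.54. The antisense gene Gm16008 covers 27.2% of the exon of Tnfrsf18. T cell genes were measured beside them: among 12 such genes, 7 exceeded the background of both libraries, none was at 0, and the list summed to 241 CPM in library 1 and 146 CPM in library 2. The part of such cells in these levels was not tested.

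The other receptors above background in both libraries lay between 1.02 and 5.38 CPM per kb in single libraries. Relt, a receptor of lymphoid tissues, was at 5.38 CPM per kb in library 1 and 2.03 in library 2. Tnfrsf21, a death domain receptor, was at 4.09 and 3.66, and Tnfrsf19, a receptor of hair follicle and nervous tissue, at 3.69 and 3.05. Tnfrsf13b, a receptor of BAFF and APRIL, was at 3.94 and 2.29 CPM per kb. Tnfrsf10b, the mouse death receptor for TRAIL, was at 1.02 CPM per kb in library 1 and 4.13 in library 2, the reverse of most members, with a log2 ratio of -1.58 (95% interval -1.76 to -1.41).

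Receptors above background in library 1 alone were Tnfrsf14, the receptor of LIGHT (6.30 and 1.45 CPM per kb in libraries 1 and 2), the neurotrophin receptor Ngfr (1.16 and 1.28), Tnfrsf25 (0.879 and 1.06) and Tnfrsf11b, the soluble decoy osteoprotegerin (1.00 and 0.856). Tnfrsf14 had the highest log2 ratio of the members averaging 1 CPM or more, 2.54 (95% interval 2.23 to 2.89). Above background in neither library were Tnfrsf17 and Tnfrsf13c, the other B cell receptors of BAFF or APRIL, the lymphocyte receptors Cd27 and Tnfrsf8, and the ectodysplasin receptors Edar and Eda2r. These 6 lay between 0.147 and 1.19 CPM per kb in single libraries. Among the B cell markers, 1 of 7 genes was above background in both libraries, and the list summed to 47.1 CPM in library 1 and 21.7 CPM in library 2. Of the 24 steps in the order of receptors, 22 separated genes with overlapping ranges, and the exceptions were the steps from Tnfrsf1a to Cd40 and from Ngfr to Tnfrsf25. With TMM-scaled levels the ranges of Tnfrsf1a and Cd40 overlapped, while those of Tnfrsf8 and Eda2r came apart.

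By structure, the 7 receptors with a death domain (Tnfrsf1a, Fas, Tnfrsf10b, Tnfrsf21, Tnfrsf25, Ngfr and Edar) summed to 45.3 CPM per kb in library 1 and 54.0 in library 2, while all 25 receptors summed to 284 and 189. Of these 7, 4 (57.1%) were above background in both libraries, against 47.3% of protein-coding genes. In library 1 none of them was at least 2-fold higher and 1, Tnfrsf10b, was at least 2-fold lower. The shares of all genes averaging 1 CPM or more were 11.8% and 20.4%. No trait of the class is read from 7 genes.

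Ligands and receptors known to bind each other were then set side by side. Of 27 known pairs of a ligand with a receptor, 5 had both genes above background in both libraries: Tnf with each TNF receptor, Tnfsf9 with Tnfrsf9, Tnfsf12 with Tnfrsf12a, and Tnfsf4 with Tnfrsf4. In 11 pairs the receptor alone was above background, in 1 the ligand alone (Tnfsf15 without Tnfrsf25), and in 10 neither gene was. Taken by itself, library 1 held both genes of 15 pairs and neither gene of 4, and library 2 both of 8 and neither of 10. Pairs share genes and are not independent of each other. Their counts depend on the shares of single genes called in both libraries, 27.8% of ligands and 60.0% of receptors. Among all protein-coding genes that share was 47.3%. No trait of the pairs is read from these counts.

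Within the pairs the balance of receptor and ligand differed between the libraries. Per kb, Tnfrsf9 exceeded Tnfsf9 2.83 times in library 1 (95% interval 2.70 to 2.97) and 1.67 times in library 2 (1.55 to 1.80). Tnfrsf12a exceeded Tnfsf12 1.74 times in library 1 (1.57 to 1.93) and 8.28 times in library 2 (6.87 to 10.04), with the reservation on Tnfsf12 given above. Tnfrsf18 stood at 16.4 times Tnfsf18 in library 1 (11.9 to 23.1), where the ligand lay within background, and at 0.635 times in library 2 (0.559 to 0.721). Tnf stood at 0.961 times Tnfrsf1b in library 1 (0.937 to 0.985) and at 1.75 times in library 2 (1.68 to 1.81). Cd40 was the clearest receptor without its ligand, at 58.7 times the level of Cd40lg in library 1 and 45.8 times in library 2 (95% intervals 44.1 to 80.0 and 28.9 to 77.3), with Cd40lg within background in both.

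**Figure D2:**
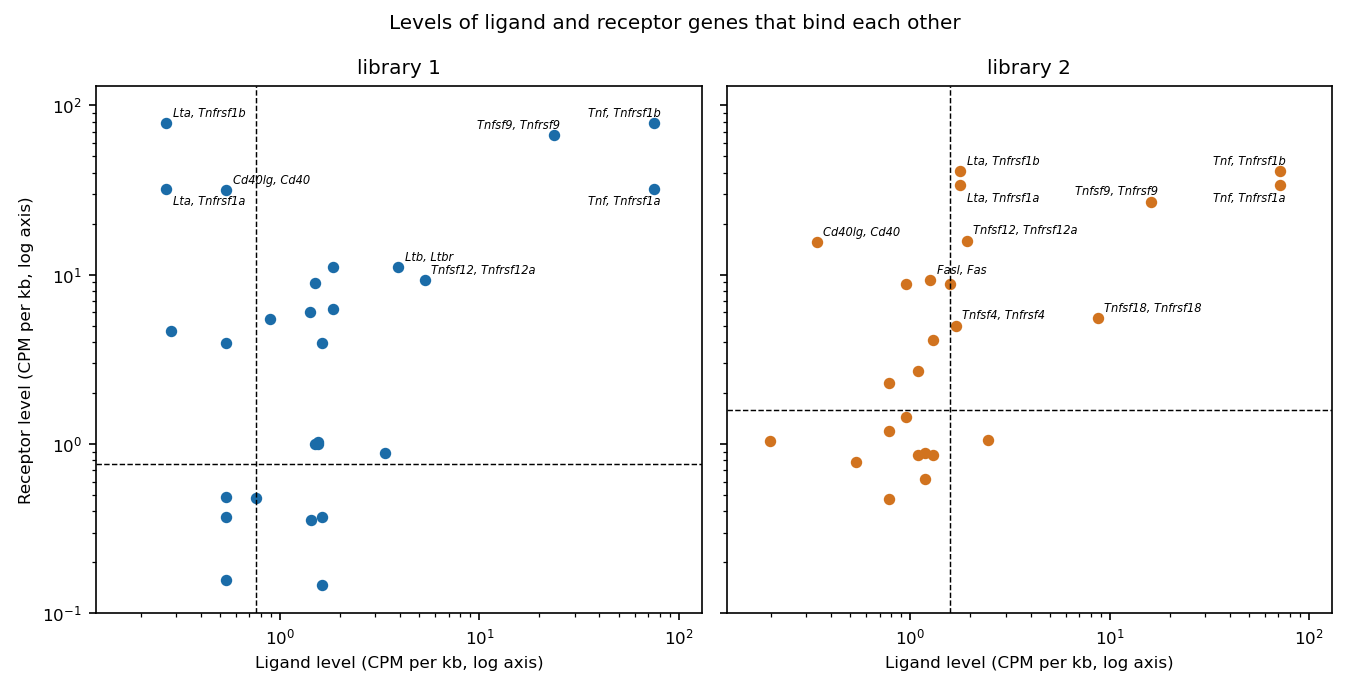
Each point is 1 ligand and receptor pair, with the ligand level on the horizontal and the receptor level on the vertical axis (CPM per kb of exon, log axes), in library 1 (left) and library 2 (right). Dashed lines give the background of each library, and pairs with a ligand at 0 counts are not drawn. Pairs of Tnf and of Tnfsf9 sit at the upper right in both libraries, and the pair of Cd40lg and Cd40 at the upper left.

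The libraries differed widely for single members. Of the 38 members averaging 1 CPM or more, 11 were at least 2-fold higher in library 1, against 11.8% of all 26545 such genes, and 5 were at least 2-fold lower, against 20.4%. On total counts these were 8 and 6 members, against 5.45% and 32.9% of all genes. Besides the genes above background in both libraries, the 11 held Tnfrsf14, Ltb, Tnfsf13b and Tnfsf14, and the 5 held Tnfsf18, Lta, Eda2r and Cd27. Eda2r and Cd27 were above background in neither library. The olfactory receptor genes that set the background were themselves lower in library 1. Of those averaging 1 CPM or more, 48.0% were at least 2-fold lower, with a median log2 ratio of -0.97. Limited to genes above background in both libraries, 7 of 20 members were at least 2-fold higher in library 1, against 18.2% of 10374 protein-coding genes. By the same limit 1 of 20 was at least 2-fold lower, against 5.6%. With TMM factors taken from those protein-coding genes alone, 6 of 20 members were higher and 1 lower, against 8.75% and 11.1% of them. With 1 library on each side there is no test, and these counts describe the 2 libraries. The 7 were Tnfrsf11a, Tnfsf12, Relt, Tnfrsf9, Cd40, Tnfrsf1b and Tnfrsf13b, with log2 ratios between 1.21 and 2.16, and the 1 lower was Tnfrsf10b.

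The median log2 ratio of the 38 members was 0.67, against -0.08 for all genes compared. It was 0.89 for 15 ligands and 0.59 for 23 receptors. For the 20 members above background in both libraries it was 0.73, against 0.36 for such protein-coding genes. TMM scaling raised all log2 ratios by 0.43 over total counts, on which the medians were 0.24 for the members and -0.51 for all genes. The members Tnfrsf1a, Tnfsf4, Tnfrsf18, Ngfr and Tnfrsf25 changed sign between these scalings.

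**Figure D3:**
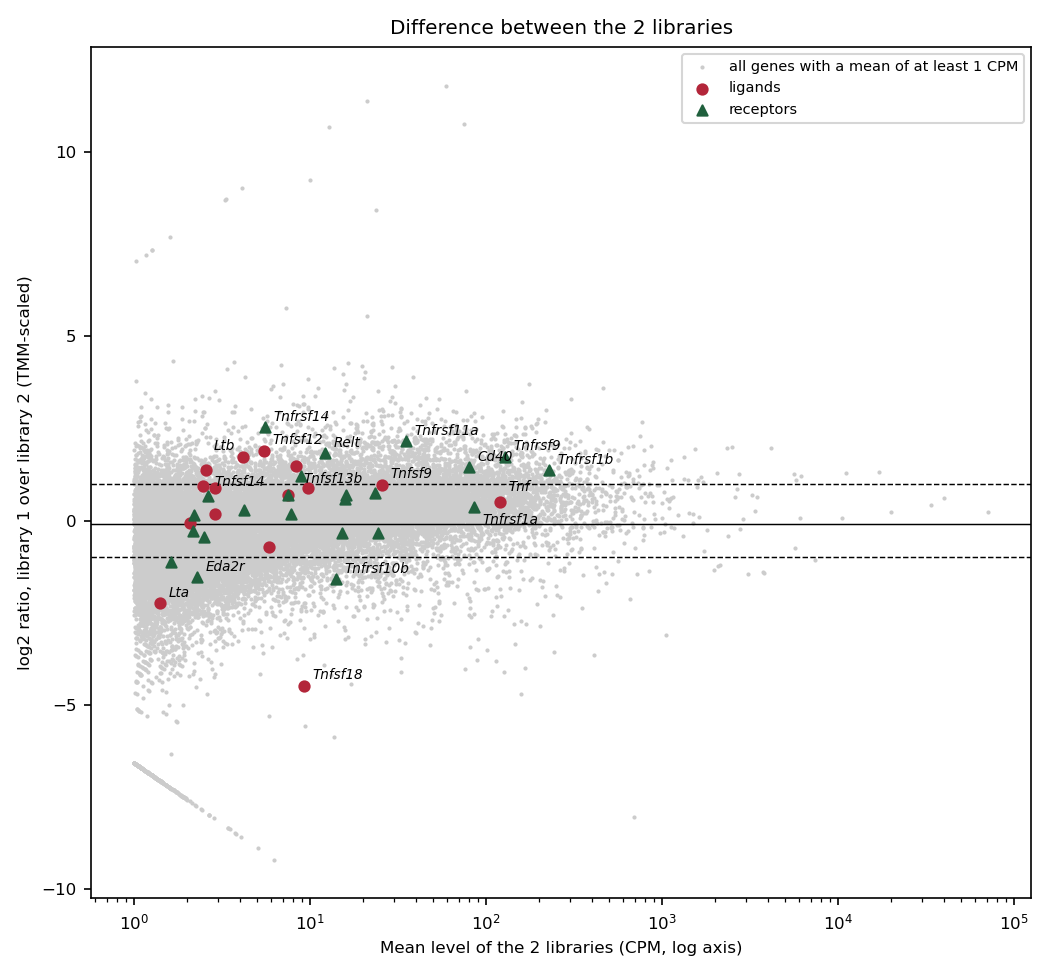
Log2 ratio of library 1 over library 2 (TMM-scaled) against the mean level in CPM on a log axis, for ligands (red circles), receptors (green triangles) and all genes averaging at least 1 CPM (grey). Dashed lines mark a 2-fold difference and the solid line the median of all genes, -0.08. Tnfrsf14 (2.54) is the highest member and Tnfsf18 (-4.48) the lowest.

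Markers of maturation and of other skin cells also differed between the libraries. Of the mature dendritic cell list, 10 of 12 genes were at least 2-fold higher in library 1, with a median log2 ratio of 2.09 and no gene at 0. All 10 keratinocyte genes had counts in both libraries, and 9 of the 10 were at least 2-fold lower in library 1, with a median of -1.40. The members at least 2-fold higher in library 1 (among them Tnfrsf9, Cd40, Tnfrsf1b and Tnfrsf11a) were picked by that direction. They share it with the maturation genes by that choice, as any gene higher in library 1 would. Several other lists also had medians above 0, with 1.08 for Langerhans cell genes (5 of 10 at least 2-fold higher), 1.26 for T cell genes (6 of 12), 1.71 for B cell genes (3 of 5 compared) and 0.88 for fibroblast genes (4 of 8). The 5 members at least 2-fold lower in library 1 were likewise picked by direction. They were Tnfsf18, Tnfrsf10b, Lta, Cd27 and Eda2r. Both the keratinocyte genes and the olfactory receptor genes (median -0.97) lay in that direction. The part of these cell states and cell types in the members' ratios was not tested. Endothelial genes (1 of 8 above background in both libraries, 95.5 CPM in library 1 and 62.4 CPM in library 2 in sum) and fibroblast genes (0 of 8, 121 CPM and 54.9 CPM) were low in sum. In library 1 taken by itself, however, 4 of 8 genes of each list were above background.

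Other genes of the pathway, which are decoy receptors, sheddases and genes of signalling below the receptors, were mostly above background. These lists were chosen with earlier results of these data known, so their shares describe the listed genes only. Of 35 such genes in 6 lists, 33 were above background in both libraries (94.3%), against 47.3% of protein-coding genes, and none was at 0. All 6 TRAF adaptor genes were, and the highest by the mean were Traf4 (27.9 and 20.3 CPM per kb in libraries 1 and 2) and Traf1 (25.6 and 10.2), an adaptor induced by NF-κB. Of the death domain adaptors and their caspase-8 module 7 of 8 were, and the highest by the mean were the initiator Casp8 (19.0 and 13.2) and its inhibitor Cflar (19.4 and 12.6). The exception, Edaradd, the adaptor of Edar, lay just under the background of library 2, beside an Edar that was within background in both.

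All 9 genes of the ubiquitin ligases and editors of TNF receptor complexes were above background. Tnfaip3, a brake on NF-κB, was at 188 CPM per kb in library 1 and 224 in library 2, above every member of the family, and its partner Tnip1 at 68.7 and 69.2. Of the alternative NF-κB arm, which CD40, LTBR and RANK engage, 4 of 4 were, and the highest by the mean were Nfkb2 (38.5 and 30.9) and the kinase gene Map3k14 (29.8 and 12.8), although Map3k14 was the lowest of the 4 in library 2. Of the sheddases and their regulators 5 of 5 were, and the highest by the mean were Rhbdf2 (15.1 and 13.2) and Adam17 (14.7 and 11.9), which act in the release of TNF from the membrane. Adam10 (16.6 and 7.07) was above both in library 1. The mouse decoy receptors Tnfrsf23 (1.75 and 3.70 CPM per kb) and Tnfrsf22 (1.35 and 2.36) were above background in both libraries, and the third, Tnfrsf26, in library 1 alone. Tnfrsf22 and Tnfrsf23 are close copies of each other, and how reads were divided between the copies is uncertain.

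Between the libraries, 10 of these 35 genes were at least 2-fold higher in library 1 and 2 were at least 2-fold lower, against 11.8% and 20.4% of all genes averaging 1 CPM or more. Among protein-coding genes above background in both libraries, as 33 of the 35 were, the shares were 18.2% and 5.6%. The median log2 ratio of the 35 genes was 0.74, against 0.36 for those protein-coding genes and -0.08 for all genes. Traf1 (1.76), Adam10, a sheddase (1.66), Map3k14 (1.65) and Traf3, an adaptor of CD40 (1.61), had the highest log2 ratios, and Timp3, a sheddase inhibitor (-1.87), and Rhbdf1 (-1.28) were the 2 lower ones. Adam10, Traf3, Timp3 and Rhbdf1 were chosen after their values were seen. The median of the decoy receptors was -0.37 and that of the other 5 lists lay between 0.61 and 0.82.

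**Figure D4:**
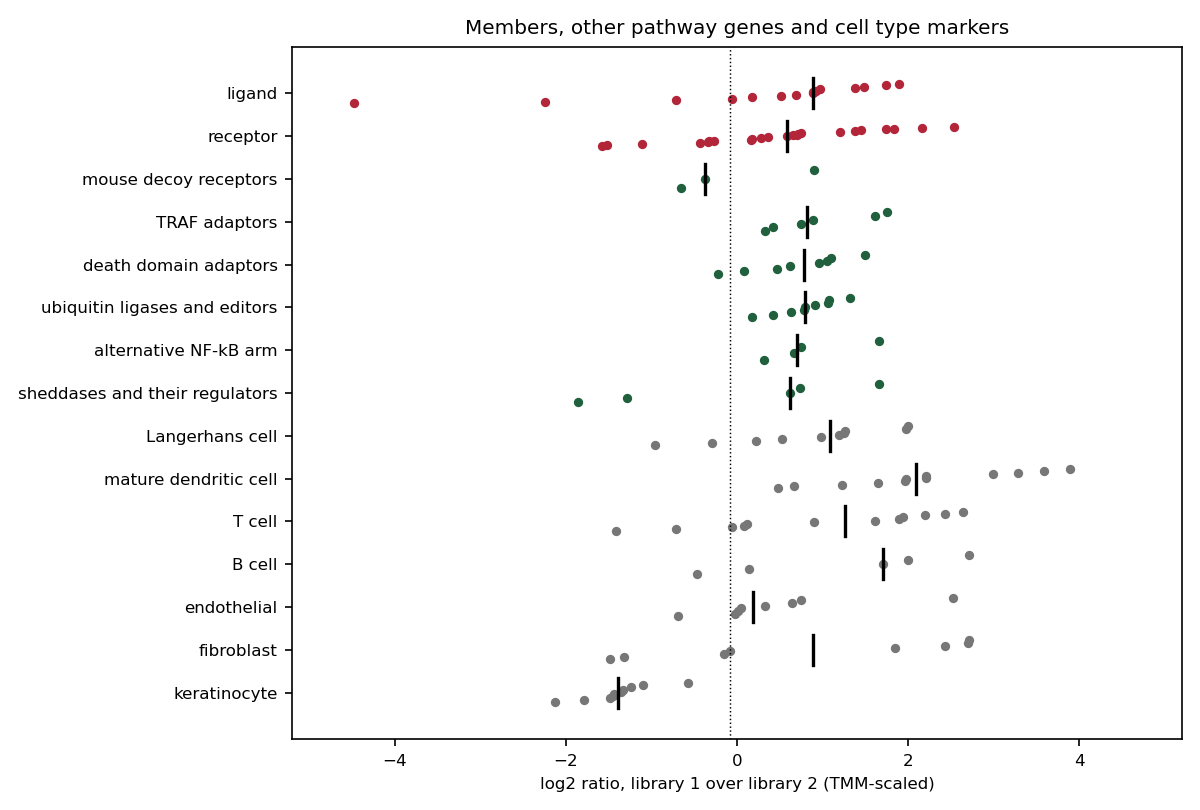
Log2 ratio of library 1 over library 2 (TMM-scaled) of each gene averaging 1 CPM or more, for the members (red), the other genes of the pathway (green) and markers of cell types and maturation (grey). Black bars are list medians and the dotted line the median of all genes, -0.08. Keratinocyte genes lie to the left and mature dendritic cell genes to the right of that line, and the members spread over both sides.

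Many members have another member as a neighbour in the genome, at a like level in some places and an unlike one in others. Of the 43 members, 19 lay within 200 kb of another member, in 8 clusters. The neighbours Tnfrsf4 and Tnfrsf18 averaged 5.52 and 5.10 CPM per kb, with overlapping ranges. Elsewhere on chromosome 4, Tnfrsf1b (145213463 to 145246870) averaged 59.5 CPM per kb, while its neighbour Tnfrsf8 (145267137 to 145315164) averaged 0.630 and lay within background. On chromosome 17, Tnfsf9 averaged 19.9 CPM per kb, against 0.812 for its neighbour Cd70 and 1.40 for Tnfsf14. On chromosome 6, Tnfrsf1a averaged 33.0 CPM per kb, Ltbr 9.93 and Cd27 0.702. On chromosome 1, Tnfsf18 and Tnfsf4 differed in their log2 ratios, at -4.48 and 0.17.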

How the data were processed

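RNA was sequenced from 2 samples of 1 group, with libraries made from 10 to 70 ng of total RNA by a stranded low-input kit, per the labels' protocols. The authors deposited 1 table of raw counts, whole numbers for each Ensembl gene. Trimmomatic, HISAT2, SAMtools, StringTie and GRCm38 are named without versions, per the submitters' processing notes. The sources used here do not give the counting settings, the annotation release or the use of strand. Of the 55487 rows, 55227 matched GENCODE M21 (GRCm38), which gave symbols, positions and the union of exons. The total row without an identifier was left out. Levels are CPM and CPM per kb, with exact 95% Poisson or binomial intervals. Ratios of library 1 over library 2 used edgeR 4.0.16 (R 4.3.3) TMM factors over genes averaging at least 1 CPM and a prior count of 1. A 2-fold difference was a call, without a test, since no residual degrees of freedom exist for a contrast. The ratio and its interval were also computed on simulated counts with known fold changes. That simulation held counting error alone, so it does not cover the spread between the libraries. All members are accounted for, and those above background are given in both libraries. Of the other pathway genes, the 2 highest per list and any at least 4-fold different are named (none was). The members, lists, pairs and background genes were chosen with earlier results of these data known. Alternatives were other scalings, among them DESeq2 1.42.0 size factors, filters, backgrounds, folds and single libraries. Promoter sequences are from RefSeq on GRCm38.p6.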

Additional observations from a re-analysis of the deposited data

How the results depend on the processing

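No paired analysis was possible because both libraries belong to 1 group. Taking each library by itself gave 22 to 31 members above background, 7 to 12 ligands, 15 to 19 receptors, 8 to 15 pairs with both genes above background, 33 to 35 other pathway genes and 11072 to 12339 protein-coding genes, and a median member level of 1.63 to 1.70 CPM per kb. The 99th percentile of olfactory receptor genes left 3 ligands and 3 pairs. A minimum of 1 CPM in each library, without lengths, gave 34 members, 13 ligands, 17 pairs and 15919 protein-coding genes. The median member level of 2.58 CPM per kb was 2.37 with TMM scaling, 2.34 with DESeq2 size factors and 1.98 as TPM. On total counts 5 other pathway genes were at least 2-fold higher in library 1 and 3 lower, against 5.45% and 32.9% of all genes. Another setting kept only protein-coding genes above background in both libraries, with factors from those genes. There 6 of 20 members were at least 2-fold higher and 1 lower, against 8.75% and 11.1% of those genes. Of the other pathway genes, 5 were higher and 3 lower in that setting. With background subtracted, 9 of 20 members were at least 2-fold higher and 1 lower, against 22.5% and 6.46% of all genes compared, whose median log2 ratio was 0.42 and not -0.08. At 1.5-fold, 21 members were higher and 6 lower, against 23.6% and 32.6% of all genes, and 23 other pathway genes were higher and 3 lower. The log2 ratios of members at least 2-fold different kept their sign on total counts, with DESeq2 size factors, without a filter, with at least 10 counts in both libraries and with a prior count of 5. The 2 alternatives limited to genes above background compared only 20 members, whose 2-fold ratios kept their sign too. These intervals and levels carry no biological error beyond 2 libraries, and members under 100 counts are limited by depth.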
